A study of Homo sapiens with 6 samples.

Results

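Prostaglandin genes are described here in RNA-seq libraries of C4-2, an established line of human prostate tumour cells descended from LNCaP, and of its enzalutamide-resistant counterpart, labelled C4-2 Enz-R. Enzalutamide is a drug that blocks the androgen receptor. Each group held 3 libraries. The labels do not say how the resistant cells were made, whether either group was in the drug at collection, or whether libraries came from separate cultures. The p-values below therefore reflect variation among libraries that could be purely technical. The genes are 10 of the 59565 loci in the count table: the receptor genes PTGFR, PTGER2, PTGER3 and PTGER4, the synthesis genes PTGS1, PTGES, PTGES2 and PTGES3, the uptake gene SLCO2A1 and the breakdown gene HPGD. They were picked by gene symbol, and chosen by their count differences between these same parental and Enz-R libraries, which were already known. Their differences are therefore given as a description, with no p-value, and support nothing beyond themselves. Of the 10 genes, 9 passed the filter on low counts and PTGER2 did not.

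Prostaglandins are short-lived lipid signals made from arachidonic acid. Cyclooxygenases, encoded by PTGS1 and PTGS2, turn it into an unstable intermediate, and terminal synthases convert that into prostaglandin E2, F2alpha, D2, prostacyclin or thromboxane. They act on G protein-coupled receptors of the same or neighbouring cells. Prostaglandins E2 and F2alpha are taken up by the carrier encoded by SLCO2A1 and oxidised inside the cell by the dehydrogenase encoded by HPGD. The prostate and seminal vesicles are a classic source of these lipids, and HPGD is a known androgen-induced gene of prostate cells.

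Library totals ran from 15673404 to 28247038 counts. Mitochondrially encoded genes took 8.78% to 11.3% of the counts in the parental libraries and 14.5% to 15.5% in the Enz-R libraries. All 7 luminal prostate markers were detected above 1 CPM, the read count scaled to a common library size after TMM normalization, and their summed level was 8237 to 8871 CPM in parental and 4762 to 4931 CPM in Enz-R libraries. Of these 7, 2 were called higher and 5 lower in Enz-R at edgeR adjusted p under 0.05, against 32.4% and 32.3% of tested genes. Leukocyte markers summed to 2.80 to 3.62 and 2.01 to 2.83 CPM, endothelial markers to 4.67 to 6.25 and 1.04 to 1.14 CPM, and basal markers to 3.66 to 4.73 and 3.33 to 3.43 CPM. Fibroblast markers summed to 55.9 to 59.1 and 44.4 to 53.6 CPM, of which the collagen gene COL1A1 gave 54.8 and 46.8 CPM on average. Of the basal, fibroblast, endothelial and leukocyte markers, 3 of 4, 3 of 5, 3 of 4 and 4 of 5 were below 1 CPM, and none was at 0 in all libraries. The part of these markers in the results below was not tested.

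The promoter table of RefSeq (GRCh38.p14) held 12 windows for 8 of the 10 genes, and none for PTGER3 and SLCO2A1. The 250 bases before the start are shown for PTGFR, PTGES and the downstream of the 2 HPGD starts, because these promoters belong to a receptor gene that was lower in Enz-R and to a synthesis and a breakdown gene that were higher. The sequences run 5′ to 3′ on the gene's strand, and capitals mark matches to any of 4 motifs searched on both strands: the GC box GGGCGG, the TATA core TATAAA, the cAMP response element TGACGTCA and the androgen receptor half-site AGAACA.
PTGFR, chr1:78490724-78490973, plus strand: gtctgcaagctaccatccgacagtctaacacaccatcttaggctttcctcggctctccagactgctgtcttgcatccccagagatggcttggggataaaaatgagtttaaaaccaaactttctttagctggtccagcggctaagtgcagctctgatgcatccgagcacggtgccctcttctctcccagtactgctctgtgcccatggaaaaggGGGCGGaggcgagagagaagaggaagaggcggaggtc
PTGES, chr9:129753043-129753292, minus strand: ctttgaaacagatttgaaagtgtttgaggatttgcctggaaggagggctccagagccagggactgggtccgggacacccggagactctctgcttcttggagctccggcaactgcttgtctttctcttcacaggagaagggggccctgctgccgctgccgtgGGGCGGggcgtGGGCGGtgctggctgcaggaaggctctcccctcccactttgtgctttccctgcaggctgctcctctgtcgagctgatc
HPGD, chr4:174522489-174522738, minus strand: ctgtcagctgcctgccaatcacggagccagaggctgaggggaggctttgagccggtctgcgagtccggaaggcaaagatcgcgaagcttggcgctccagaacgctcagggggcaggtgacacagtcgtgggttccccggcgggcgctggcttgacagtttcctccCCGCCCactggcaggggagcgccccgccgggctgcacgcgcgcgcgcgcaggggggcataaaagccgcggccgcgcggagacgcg
All matches in these windows were GC boxes, with 1 in PTGFR, 2 in PTGES and 1 in HPGD. A GC box was found in 42.6% of the 35116 windows of this length in the table, the TATA core in 10.7%, the cAMP response element in 1.65% and the androgen receptor half-site in 12.4%. The windows differed more in base composition. The HPGD window had 70.8% G and C with 29 CG pairs, against 54% and 8 pairs for PTGFR and 61.2% and 9 pairs for PTGES. The other HPGD start, whose window is not printed, had 42% and 4 pairs and no GC box, so the place of HPGD in this order depends on the start. The median window of the table had 58% and 11 pairs. These letters describe the windows and say nothing about binding.

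The receptor transcripts differed in which one led. In parental cells the prostaglandin F receptor was almost the only abundant prostanoid receptor transcript. In Enz-R cells it was nearly absent, and the E receptor gene PTGER4 stood above the others. PTGFR (ENSG00000122420, chromosome 1, 78303884 to 78539749) encodes the receptor for prostaglandin F2alpha, which couples to Gq and raises calcium. Parental libraries held 1447, 914 and 1099 counts of it, or 50.4, 45.8 and 53.6 CPM, and Enz-R libraries 0, 2 and 1 counts. Every parental library lay far above every Enz-R library. The group sums of 3460 and 3 counts gave a 906-fold lower level (95% counting interval 309.8 to 4396, which covers counting error only). The fitted log2 fold change, which at so few counts depends on the prior count, was -9.67, and it was -8.98 without Enz-R replicate 1 and -10.57 without Enz-R replicate 2. The 0 of Enz-R replicate 1 allows up to 0.137 CPM, taking 3 counts as the limit. In such bulk libraries, fewer cells with the transcript and less of it per cell cannot be told apart. Of 19029 tested genes, only 1 had a lower fitted log2 fold change than PTGFR. In GENCODE 29 the gene begins well upstream of the RefSeq start shown above, and it spans MGC27382 on its own strand, to which 9 and 0 counts were assigned in the parental and Enz-R groups.

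PTGER3 (chromosome 1, 70852353 to 71047808) encodes the E receptor that mainly couples to Gi and lowers cAMP. Parental libraries held 4, 4 and 1 counts of it and Enz-R libraries 49, 42 and 37, or 0.129 ± 0.0762 and 2.37 ± 0.118 CPM (SD, n = 3 each). The groups were far apart, by 18.1-fold on the summed counts (95% counting interval 9.24 to 40.5).

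PTGER4 (chromosome 5, 40679498 to 40693735) encodes a Gs-coupled E receptor that raises cAMP. Its levels were 1.08, 0.901 and 1.66 CPM in the parental and 4.39, 3.88 and 4.27 CPM in the Enz-R libraries. The lowest Enz-R library was above the highest parental one, with a log2 fold change of 1.79 ± 0.22 (± SE, from edgeR's quasi-likelihood fit over all genes). PTGER4 overlaps the coding gene TTC33 on the opposite strand, and the counting is not stated to use strand, so reads of the 2 genes cannot be told apart there. TTC33 itself moved the other way, from 9.83 to 7.25 CPM (log2 fold change -0.44 ± 0.13, edgeR adjusted p = 0.00775).

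PTGER2 (chromosome 14, 52314305 to 52328606), the other Gs-coupled E receptor, had 2, 5 and 1 counts in the parental and 0, 2 and 0 in the Enz-R libraries. The groups overlapped. The ratio of the summed counts, 3.14-fold higher in parental, had a 95% counting interval of 0.627 to 30.4, so no difference was detectable at this depth.

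Set side by side per kilobase of merged exons, the 9 prostanoid receptor genes summed to 11.6 ± 1.05 CPM per kb in parental and 1.95 ± 0.168 in Enz-R cells. PTGFR made up 91.2%, 92.8% and 90.6% of that sum in parental replicates 1 to 3, against 0%, 1.41% and 0.656% in Enz-R replicates 1 to 3. Without PTGFR the remaining receptors summed to 0.990 ± 0.216 and 1.94 ± 0.177 CPM per kb, and the 3 Enz-R libraries all lay above the 3 parental ones. That sum holds PTGER4 (0.306 and 1.06 CPM per kb) and PTGER3 (0.0134 and 0.245), which were chosen by their differences. Its separation therefore supports nothing further. Receptors that were not chosen overlapped between the groups: TBXA2R (0.249 and 0.234 CPM per kb), PTGER1 (0.266 and 0.302) and PTGDR2 (0.105 and 0.0884). PTGER4 accounted for 54.1% ± 2.22 of the Enz-R sum, PTGER1 for 14.9% ± 9.68, PTGER3 for 12.6% ± 1.61 and the thromboxane receptor gene TBXA2R for 12.2% ± 4.81. The order of PTGER1, PTGER3 and TBXA2R did not exceed their spread. PTGER1, a Gq-coupled E receptor, rested on 26 and 23 counts a group, so these shares are coarse.

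**Figure D1:**
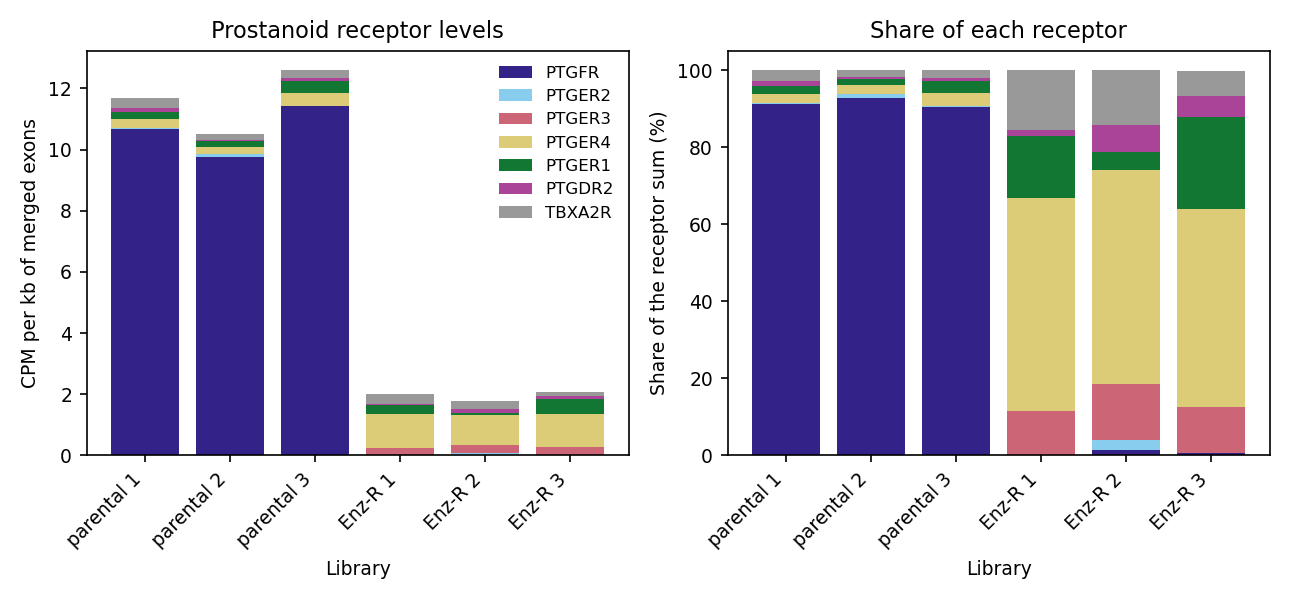
Prostanoid receptor transcripts in each library, as CPM per kb of merged exons (left) and as a percentage of their sum (right), with 1 stacked bar per library. PTGFR fills over 90% of each parental bar and at most 1.41% of an Enz-R bar, where PTGER4 is the largest segment.

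The other 5 receptor genes, which are not among the 10, were low in both groups. PTGDR and PTGIR, the receptors for prostaglandin D2 and prostacyclin, had 0 counts in all 6 libraries, which allows up to 0.0243 CPM over the series. PTGDR2, the second receptor for prostaglandin D2, had 22 and 13 counts a group. TBXA2R had 0.696 ± 0.203 and 0.654 ± 0.244 CPM (edgeR adjusted p = 0.852). PTGFRN encodes a membrane protein that binds the F receptor and inhibits ligand binding to it. It fell from 106 ± 5.23 to 51.5 ± 3.77 CPM (log2 fold change -1.04 ± 0.07, edgeR adjusted p = 5.50e-09), with no overlap between the groups.

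Among the synthesis genes, only that of the inducible E synthase differed widely. PTGES (chromosome 9, 129738331 to 129753047) encodes the microsomal synthase that works with inducible cyclooxygenase. Parental libraries held 11, 12 and 11 counts of it and Enz-R libraries 81, 72 and 67. In CPM these were 0.383, 0.601 and 0.537 against 3.70, 4.24 and 4.34, and the groups did not overlap. The log2 fold change was 3.03 ± 0.24, an 8.15-fold higher level.

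PTGES2 (chromosome 9, 128120693 to 128128462), a membrane-associated E synthase, had 103, 103 and 109 CPM in parental and 104, 101 and 90.1 CPM in Enz-R libraries. The groups overlapped, with a log2 fold change of -0.09 ± 0.07. PTGES3 (chromosome 12, 56663341 to 56688408) encodes a cytosolic E synthase that is also known as p23, a co-chaperone of HSP90 and of steroid receptors. It had 376, 408 and 412 CPM in parental and 355, 341 and 346 CPM in Enz-R libraries. The groups did not overlap, but the difference was small, at -0.20 ± 0.06. PTGES3 has 5 processed pseudogenes in the table that can share its reads; the most counted, PTGES3P1, had 379 and 215 counts a group against 27401 and 18906 for PTGES3.

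Per kilobase, PTGES3 made up 77.1% ± 0.652 of the summed level of the 3 E synthase transcripts in parental and 74.7% ± 1.25 in Enz-R cells, and PTGES2 22.7% ± 0.684 and 23.7% ± 1.35. PTGES was 0.175% ± 0.0333 of this sum in parental and 1.58% ± 0.170 in Enz-R cells. The transcript with the wide relative difference was the smallest part of the pool in both groups.

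PTGS1 (chromosome 9, 122370530 to 122395703), the constitutive cyclooxygenase, had 4.07, 5.16 and 4.78 CPM in the parental and 3.84, 4.06 and 3.43 CPM in the Enz-R libraries. The highest Enz-R library lay just under the lowest parental one, and the log2 fold change was -0.29 ± 0.16. The inducible cyclooxygenase gene PTGS2, which is not among the 10, was too low to test, with 11 counts summed over parental libraries and 12 over Enz-R ones. With library totals in place of TMM scaling, PTGS1 stood at -0.39 and PTGES2 at -0.19, and both would be called lower.

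The uptake gene was lower in Enz-R cells and the breakdown gene higher. SLCO2A1 (chromosome 3, 133928145 to 134052184), which encodes the prostaglandin carrier of the plasma membrane, had 125, 76 and 91 counts in the parental and 7, 8 and 7 in the Enz-R libraries. These were 4.35, 3.81 and 4.44 CPM against 0.320, 0.471 and 0.453 CPM. The groups were well apart, with a log2 fold change of -3.35 ± 0.25, a 10.2-fold lower level.

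HPGD (chromosome 4, 174490177 to 174523154) encodes the dehydrogenase that begins the inactivation of prostaglandins. It had 6, 9 and 9 counts in the parental and 39, 18 and 25 in the Enz-R libraries, or 0.209, 0.451 and 0.439 CPM against 1.78, 1.06 and 1.62 CPM. The lowest Enz-R library was above the highest parental one. The log2 fold change was 2.08 ± 0.36, a 4.22-fold higher level. The coefficient of variation was 37.2% in parental and 25.5% in Enz-R libraries, and the level stayed under 2 CPM in all 6 libraries.

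**Figure D2:**
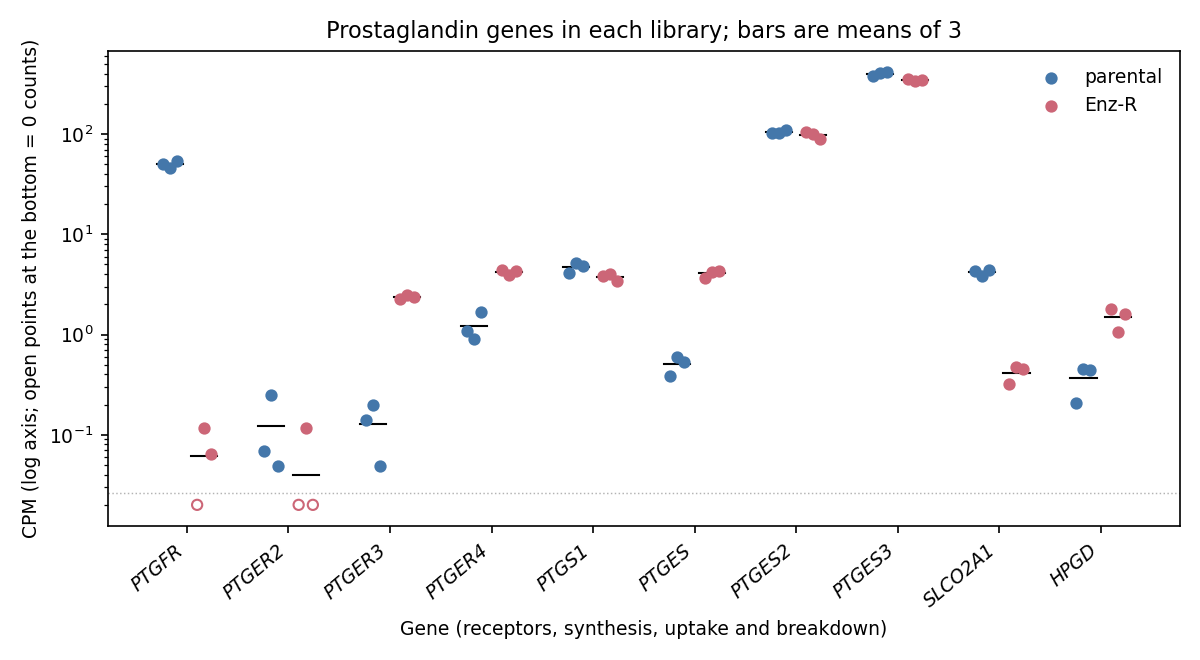
CPM of the 10 prostaglandin genes in each library on a log axis, parental in blue and Enz-R in red, with a bar at each group's mean; open points mark libraries with 0 counts. PTGFR and SLCO2A1 lie lower in Enz-R, PTGER3, PTGER4, PTGES and HPGD lie higher, and PTGES2 and PTGER2 overlap. PTGES3 and PTGS1 lie slightly lower without overlap, and PTGS1 was not called.

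Of the 9 genes past the filter, 4 lay among the genes called higher (PTGER3, PTGER4, PTGES and HPGD) and 3 among those called lower (PTGFR, PTGES3 and SLCO2A1) at adjusted p under 0.05 in the fit over all genes. For these genes the calls are a description and no test, since they were chosen on the same contrast. The background is 64.8% of the 19029 tested genes called, 32.4% higher and 32.3% lower. The groups did not overlap for 8 of these 9, where the background is 68.9%. At least 2-fold differences were seen in 6 of the 9, against 19.7% of tested genes that were called and at least 2-fold. PTGFR and SLCO2A1 passed the filter only through the parental group, and PTGER3, PTGES and HPGD only through the Enz-R group, where each is high. Nothing is read from these counts.

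The order of the levels per kilobase shows how the set was rearranged. In parental cells PTGES3 (117 ± 5.74 CPM per kb), PTGES2 (34.6 ± 1.14) and PTGFR (10.6 ± 0.838) led, each clear of the next. PTGS1 (0.807 ± 0.0951) followed, then SLCO2A1, PTGER4 and PTGES, whose libraries overlapped their neighbours in the order, and then HPGD, PTGER2 and PTGER3, which also overlapped. In Enz-R cells PTGES3 (102 ± 2.09 CPM per kb) and PTGES2 (32.5 ± 2.47) again led. PTGES (2.16 ± 0.180) came after them, then PTGER4 (1.06 ± 0.0666) and PTGS1 (0.652 ± 0.0551), each clear of the next. HPGD and PTGER3 overlapped, and SLCO2A1, PTGER2 and PTGFR were last and overlapped.

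Other genes of the pathway were taken from lists drawn up by function. Of 140 such genes 115 passed the filter, of which 38 were higher, 38 lower and 39 not called. That share of called genes is near the background.

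Of 9 other synthesis genes 5 were tested. TBXAS1, the thromboxane synthase gene, fell from 5.78 ± 0.493 to 2.20 ± 0.347 CPM (log2 fold change -1.37 ± 0.17, edgeR adjusted p = 4.72e-06). PRXL2B, which encodes a prostaglandin F synthase, fell from 77.9 ± 5.99 to 60.8 ± 6.65 CPM (-0.36 ± 0.08, adjusted p = 0.00121). AKR1C3, an aldo-keto reductase with F synthase activity, rose from 9 to 61 summed counts (3.06 ± 0.46, an 8.34-fold higher level). CBR1, a carbonyl reductase that can turn E2 into F2alpha, rose from 37.8 ± 1.28 to 46.2 ± 3.00 CPM (0.29 ± 0.07). AKR1B1, another F synthase, had a value of -0.56 ± 0.40 (adjusted p = 0.234). The synthases of prostaglandin D2 and prostacyclin (PTGDS, HPGDS and PTGIS) had at most 4 counts in a group. Of these genes with F synthase activity, PRXL2B fell, AKR1C3 rose from few counts and AKR1B1 was not called. CBR1, which can also form F2alpha, rose.

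All 9 genes of the transport and breakdown list were tested, with 3 higher, 2 lower and 4 not called. The background over all tested genes is 32.4% higher and 32.3% lower. ABCC4, which encodes an exporter of prostaglandins and of cyclic nucleotides, fell from 99.7 ± 3.16 to 37.8 ± 4.68 CPM (-1.39 ± 0.08, edgeR adjusted p = 1.02e-09). PTGR1, a reductase that acts after HPGD in prostaglandin breakdown, fell from 56.5 ± 3.21 to 19.5 ± 1.01 CPM (-1.53 ± 0.07, adjusted p = 1.48e-10). The related reductase genes differed from it: PTGR2 stood at -0.07 ± 0.10 (adjusted p = 0.538) and PTGR3 was higher by 0.29 ± 0.08. The organic anion carrier gene SLCO4A1 rose from 40.2 ± 2.36 to 60.2 ± 2.49 CPM (0.58 ± 0.07), and AKR1C2 rose from 22 to 100 summed counts. AKR1C1 (-0.52 ± 0.36), CBR3 (0.30 ± 0.17) and SLCO3A1 (0.31 ± 0.13) were not called. AKR1C1, AKR1C2 and AKR1C3 are close relatives in sequence, so their separate values are uncertain. Without Enz-R replicate 1, 5 genes of this list were higher instead of 3, the added ones being SLCO3A1 and CBR3.

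Of 19 tested genes that release arachidonic acid or return it to phospholipids, 8 were higher and 4 lower. With library totals in place of TMM 7 were lower. Over all tested genes 32.4% were higher and 32.3% lower. The monoglyceride lipase gene MGLL (1.23 ± 0.15), PLAAT3 (0.88 ± 0.07) and PLA2G4B (0.65 ± 0.14) rose, and were the widest rises of this list among genes that reached 5 CPM in Enz-R and whose groups did not overlap. The secreted phospholipase gene PLA2G5 fell from 5.67 ± 0.664 to 0.607 ± 0.237 CPM (-3.18 ± 0.24, edgeR adjusted p = 2.49e-08). LPCAT3, which returns arachidonate to phospholipids, fell by 1.24 ± 0.12 on the log2 scale and PLA2G4F by 0.69 ± 0.08. Lipoxygenase and leukotriene genes were 5 of 14 higher and 4 lower. The epoxygenase gene CYP2J2 (0.96 ± 0.11), ALOXE3 (0.79 ± 0.15) and the leukotriene B4 receptor gene LTB4R (0.75 ± 0.08) rose, while EPHX2 (-0.32 ± 0.07) and ALOX15 (-0.20 ± 0.06) fell. ALOX15 was not called without Enz-R replicate 3 (-0.15).

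The genes through which these receptors signal were also mixed. Of 28 tested Gs and cAMP genes 10 rose and 7 fell, where 32.4% of all tested genes were higher and 32.3% lower. GNAS, the Gs alpha subunit gene, rose from 1050.4 ± 50.4 to 1859 ± 54.1 CPM (0.82 ± 0.07), and the adenylyl cyclase gene ADCY1 (1.08 ± 0.08) and the regulatory subunit gene PRKAR1B (1.08 ± 0.11) rose. The cAMP phosphodiesterase gene PDE4D fell from 5.44 ± 0.621 to 1.20 ± 0.0280 CPM (-2.18 ± 0.19), with PRKACB (-1.37 ± 0.09) and ADCY7 (-1.04 ± 0.13).

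Of 23 Gq and calcium genes 5 rose and 10 fell, with 64.8% of all tested genes called. PRKCD, a protein kinase C gene, fell from 250.3 ± 13.4 to 110.3 ± 3.63 CPM (-1.18 ± 0.06), and NFATC3 (-1.25 ± 0.11) and the phospholipase C gene PLCB4 (-1.21 ± 0.07) fell. ITPR2 (0.71 ± 0.14), PRKCA (0.67 ± 0.12) and PLCB1 (0.57 ± 0.13) rose. Of 15 genes for Gi subunits and receptor desensitisation 5 rose and 8 fell, among them the Gi family genes GNAZ (-1.12 ± 0.08), GNAI3 (-0.89 ± 0.06) and GNAI1 (-0.27 ± 0.10). RGS10 (0.53 ± 0.08), ARRB2 (0.34 ± 0.06) and GNAI2 (0.28 ± 0.06) rose. The call of GNAI1 was lost without parental replicate 2 or 3 or Enz-R replicate 2 or 3 (-0.28, -0.25, -0.16 and -0.26).

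**Figure D3:**
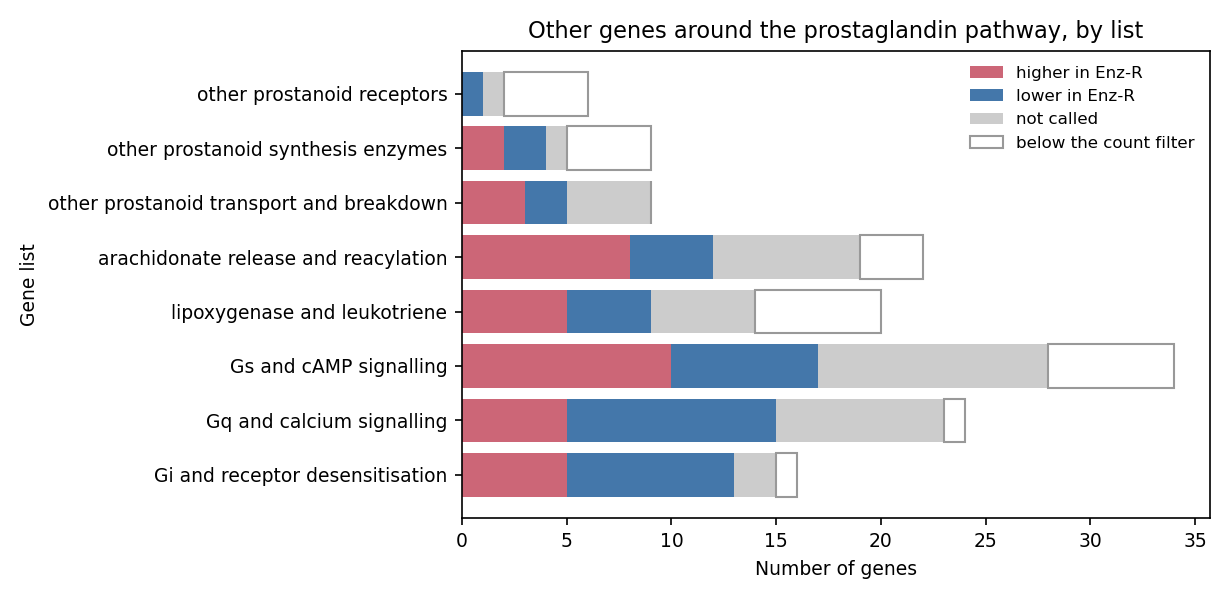
Number of genes in each of 8 lists around the prostaglandin pathway that were higher in Enz-R (red), lower (blue), not called (grey) or below the count filter (white). Higher and lower genes occur together in 7 of the lists; over all tested genes 64.8% were called.

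Position was not used to choose the genes, so the 3 nearest tested coding genes on each side were read for each. The genes were chosen by their own differences, so a wider value than those of their neighbours supports nothing. Of these 60 neighbours 17 were higher, 29 lower and 14 not called, where the background over all tested genes is 32.4% higher and 32.3% lower. Around PTGES, PTGER4, PTGER3 and SLCO2A1 the medians of the neighbours' log2 fold changes were -0.24, -0.38, -0.40 and -0.24. The highest neighbour of PTGER4, the ribosomal protein gene RPL37, stood at 1.05 and that of PTGER3 at 0.37, while the lowest neighbour of SLCO2A1 stood at -0.42.

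HPGD and PTGFR had neighbours with wide differences in their own direction. On the higher-coordinate side of HPGD, the glycine receptor gene GLRA3, 114 kb away, had 8 and 205 counts a group, 32.6-fold more in Enz-R (95% counting interval 16.2 to 76.6). The next tested gene, GPM6A, 1110 kb from HPGD, had 1 and 32 counts, 40.7-fold more in Enz-R (95% counting interval 6.80 to 1659). WDR17 after it, 1543 kb from HPGD, rose from 1.65 to 6.56 CPM (1.98 ± 0.18, edgeR adjusted p = 1.49e-07). On the other side CEP44 rose by 0.34 ± 0.09, and FBXO8 (-0.13 ± 0.11) and SAP30 (0.09 ± 0.14) were not called. Beside PTGFR, the interferon-induced gene IFI44 fell from 1.17 to 0.306 CPM (-1.79 ± 0.40, adjusted p = 0.000966). ADGRL2, an adhesion receptor gene 2766 kb away, had 1091 and 7 counts, 122-fold fewer in Enz-R (95% counting interval 59.2 to 305). TTLL7 beyond it stood at -0.15 ± 0.09. On the other side DNAJB4 was higher by 0.50 ± 0.12, and FUBP1 (-0.44 ± 0.07, edgeR adjusted p = 8.98e-05) and MIGA1 (-1.12 ± 0.08, adjusted p = 1.47e-08) were lower.

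**Figure D4:**
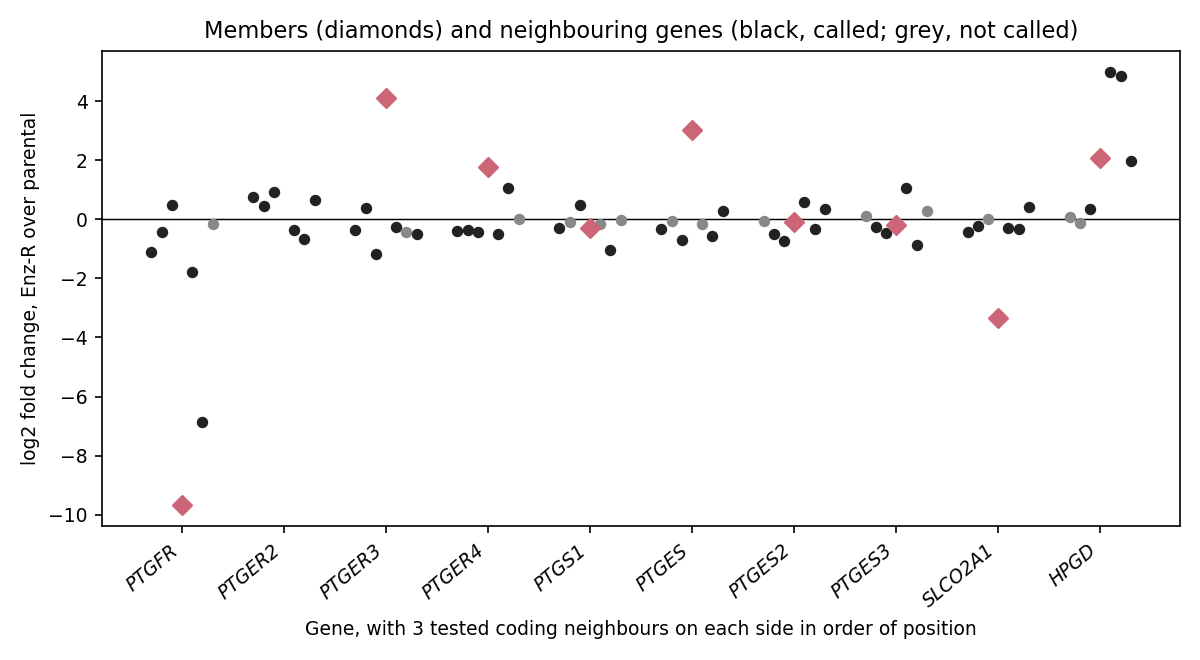
Fitted log2 fold change, Enz-R over parental, of each prostaglandin gene (diamonds) and of the 3 tested coding neighbours on each side in order of position (black, called; grey, not called). All 3 genes after HPGD lie above 1.9, and ADGRL2, 2766 kb from PTGFR, lies at -6.87. PTGER3, PTGES and SLCO2A1, which like the other members were chosen by their differences, stand apart from their neighbours. PTGER2 was below the filter and has no diamond, and the PTGFR value rests on 3 Enz-R counts.

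The coding genes whose log2(CPM + 0.1) over the 6 libraries lay closest to PTGFR were PASD1, with a root mean square difference of 1.09, ADGRL2, with 1.29, and then PDE10A. Each kept more Enz-R counts (17, 7 and 17) than PTGFR did. The closest to HPGD were CTRB1, UMODL1 and FOXD4L1, with differences of 0.21, 0.22 and 0.30. Like HPGD they were low, with 21, 27 and 24 parental counts and 75, 84 and 66 Enz-R counts. Libraries of a group carry the same cell label and may share a culture, so these distances describe 2 groups more than 6 independent points.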

How the data were processed

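The authors deposited raw gene counts for 6 libraries of 150 bp paired-end reads. HISAT2 and the build GRCh38 are named by the submitters' processing notes, without versions. What counted the reads, against which annotation, and whether by strand, is not given in the sources used here. Identifiers were matched to GENCODE 29.

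Groups follow the labels. The members and gene lists were chosen with earlier results of these data known. The fit used edgeR 4.0.16 (R 4.3.3; filterByExpr, TMM, glmQLFit, glmQLFTest, no covariate) on both groups, with Benjamini-Hochberg adjustment over 19029 genes and a threshold of 0.05. SE is the log2 fold change divided by the root of the F statistic. CPM uses TMM-scaled library sizes, and levels per kb use merged GENCODE exons. Ratios of summed counts have exact conditional binomial intervals.

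Named genes were the 10 members, all tested genes of the 3 other prostanoid lists, up to 3 rises and 3 falls of each further list (called, at least 5 CPM in the higher group, no overlap), the 3 closest profiles to PTGFR and HPGD, and neighbours. IFI44, RPL37 and the other neighbours printed, and genes below the filter, were picked after their values were seen. In simulated counts for 18614 genes, recovery was 66.7% at 1.5-fold, 87.9% at 2-fold and 100% at 4-fold, and 10 unchanged genes were called. The simulation gave all genes the same relative spread beyond counting error and left 18418 unchanged, unlike these data, so its rates may not carry over. Alternatives were other scalings, filters and tests (DESeq2 1.42.0, limma-voom 3.58.1), the replicate number as a block, and leaving out each library.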

Additional observations from a re-analysis of the deposited data

How the results depend on the processing

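Over 14 alternatives to the scaling, filter, test and set of libraries, the prostaglandin genes called numbered 4 higher and 3 lower, with 2 exceptions. With at least 50 counts in 3 libraries 2 were higher, since PTGER3 and HPGD were then not tested. With library totals only 5 were lower, PTGS1 and PTGES2 being added. No member changed direction, but PTGFR moved by over 1.5 times in fold without Enz-R replicate 1 (-8.98) or 2 (-10.57). Leaving out 1 library at a time gave 4 higher and 3 lower in each case. With the replicate block the counts were again 4 higher and 3 lower. The genes were chosen on the same contrast, so these repeated counts are a description and support nothing further. In the main fit 64.8% of all 19029 tested genes were called. The deviations of same-numbered libraries correlated at 0.0493, -0.00808 and 0.0112. With 3 libraries a group these values cannot show whether same-numbered libraries shared a culture or preparation, and the labels do not say. The replicate block changed no call among the 54 genes named as tested members or from the other pathway lists. Neighbours and closest profiles are not among these 54. Of the neighbours, 28 were lower with the replicate block and 29 in the main fit. Among the 749 recomputed values of the 54 genes, 736 kept their direction and side of the threshold. TBXA2R, which was not called, turned from -0.08 to 0.17 without parental replicate 1 and 0.16 without Enz-R replicate 3, with a range of -0.36 to 0.17. After the data were seen, mitochondrial genes were left out before scaling, which gave the same 4 and 3. Depth limits genes with under 100 counts in each group, among them PTGER2, HPGD, PTGER1, PTGDR2, PTGS2, TBXA2R, AKR1B1, AKR1C1 and AKR1C3.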
